A study of Mus musculus with 8 samples.

Results

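The comparison described here is doxycycline (Dox) against no Dox in differentiating mouse embryonic stem cells at days 1 and 2. It was chosen by label and used 4 of the 8 libraries of the series, Dox and no Dox on each of these days, and all 1099 mature microRNAs (miRNAs) of the table. The cells were of the KH2 line, a mouse embryonic stem cell line, with the genotype KH2-DGCR8 in every library, so the no Dox libraries came from the same genotype. The design text states that the protein DGCR8 was overexpressed while embryoid bodies (EBs) formed, to examine miRNA biogenesis. In EBs, aggregates grown in suspension, the cells exit pluripotency. The 4 groups were no Dox at day 1, Dox at day 1, no Dox at day 2 and Dox at day 2, with 1 library each. The sources used here do not give when Dox was added, for how long, or whether the libraries came from separate cultures. No library of cells with Dox but without the KH2-DGCR8 genotype was analysed here, so an effect of Dox itself and of DGCR8 cannot be told apart. Dgcr8 mRNA is not measured by these libraries.

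Most miRNAs are transcribed as long primary transcripts. DGCR8 binds these and guides the nuclease Drosha, the pair forming the Microprocessor, which cuts out a hairpin. Dicer then cuts the hairpin into a duplex, and its 5p or 3p arm is loaded into an Argonaute protein, where the bases after the first, the seed, select target mRNAs. In mouse embryonic stem cells the miR-290 cluster is the main miRNA product, and the miR-302 cluster with a related seed comes up as cells move towards the primed state of the epiblast.

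Levels are in RPM, miRNA reads scaled to the same total in every library and rounded to whole numbers. The smallest read totals that account for every value were 449794 (no Dox) and 517781 (Dox) on day 1, with 421524 and 470139 on day 2, so that 3 reads were worth between 5.79 and 7.12 RPM. Of the 1099 miRNAs, 490 averaged 10 RPM or more over the 4 libraries, and counts of miRNAs below are among these. The miR-290 cluster, the marker of naive pluripotent cells, held between 36.1% and 41.5% of the reads in the 4 libraries, and the miR-302 cluster, the primed marker, between 0.0743% and 0.234%. Of the lists for other cell types, muscle miRNAs summed to at most 0.0055%, endoderm to between 0.0282% and 0.0905%, and blood and endothelium to between 0.121% and 0.171%. The feeder fibroblast list held between 2.51% and 3.32%, and the neural list between 7.77% and 9.95%. The label of embryonic stem cells early in differentiation thus had its defining markers present, beside miRNAs listed for other cell types, some with larger shares than the miR-302 cluster.

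The sequences that the results turn on follow, 5′ to 3′, as mature miRNAs from RefSeq (GRCm38.p6), with the seed (bases 2 to 8) in capitals. A sequence was matched for 390 of the 490 miRNAs, and members of a seed are counted among these only. They are grouped by shared seed. A seed group is shown only where at least 2 of its members passed the counting intervals described below on both days. That those members had 1 direction on both days follows from this choice. Of all 490 miRNAs, 28.2% were higher with Dox on both days and 26.5% were lower, and 7.14% passed by counting in each direction. The 2 miRNAs with the seed AGGUAGU were higher with Dox on both days, and the 2 with ACCCUGU, which also lie in Hox gene clusters, were lower.
miR-196a-5p: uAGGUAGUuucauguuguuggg
miR-196b-5p: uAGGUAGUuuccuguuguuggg
miR-10a-5p: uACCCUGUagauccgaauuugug
miR-10b-5p: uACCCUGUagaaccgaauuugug
The next 6, of the miR-17 family, are all the matched ones with the seed AAAGUGC. All 6 were lower with Dox on both days, the first 4 also by the counting intervals described below.
miR-17-5p: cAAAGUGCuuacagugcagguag
miR-20a-5p: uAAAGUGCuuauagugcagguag
miR-93-5p: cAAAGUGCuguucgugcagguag
miR-106b-5p: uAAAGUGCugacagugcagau
miR-106a-5p: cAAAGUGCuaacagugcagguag
miR-20b-5p: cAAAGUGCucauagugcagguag
The seed AAGUGCU, the same letters shifted by a base, had 5 members with a matched sequence. miR-302a-3p of the miR-302 cluster was measured but had no matched sequence, and was lower on both days (log2 ratios of -0.19 and -0.76). The first 3 below were lower on both days, and miR-294-3p and miR-302b-3p were slightly higher at day 1 and lower at day 2.
miR-291a-3p: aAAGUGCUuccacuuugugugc
miR-295-3p: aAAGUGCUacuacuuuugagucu
miR-302d-3p: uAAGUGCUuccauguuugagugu
miR-294-3p: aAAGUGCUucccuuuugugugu
miR-302b-3p: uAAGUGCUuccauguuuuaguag
The 3 miRNAs with AAUACUG, of the miR-200 family, were lower on both days too.
miR-200b-3p: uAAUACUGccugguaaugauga
miR-200c-3p: uAAUACUGccggguaaugaugga
miR-429-3p: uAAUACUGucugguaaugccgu
The seed AUUGCAC held members of both directions. Of the 6 matched, the first 2 below were higher with Dox on both days, the next 3 were lower, and miR-367-3p differed in direction between the days.
miR-25-3p: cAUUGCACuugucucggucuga
miR-363-3p: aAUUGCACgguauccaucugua
miR-32-5p: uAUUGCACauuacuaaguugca
miR-92a-3p: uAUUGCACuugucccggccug
miR-92b-3p: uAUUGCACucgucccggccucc
miR-367-3p: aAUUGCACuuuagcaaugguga
The last 7 are shown because both arms of miR-770 and miR-582 were higher, both arms of miR-142a were lower, and miR-210-3p was the 1 miRNA called in the test between days.
miR-770-5p: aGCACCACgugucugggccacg
miR-770-3p: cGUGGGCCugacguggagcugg
miR-582-5p: aUACAGUUguucaaccaguuac
miR-582-3p: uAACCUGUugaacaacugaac
miR-142a-5p: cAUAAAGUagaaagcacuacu
miR-142a-3p: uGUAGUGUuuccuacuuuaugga
miR-210-3p: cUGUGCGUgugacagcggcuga

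Days 1 and 2 shared the direction of the Dox ratio for 268 of 490 miRNAs. Ratios are given as log2 of (Dox RPM + 1) over (no Dox RPM + 1). Of the 490 miRNAs, 138 (28.2%) were higher with Dox on both days and 130 (26.5%) were lower on both, together 54.7%, while 211 were higher on 1 day and lower on the other. The ratios of days 1 and 2, which share no library, had a Pearson r of 0.13 and a Spearman rho of 0.17 over the 490, a description across miRNAs and not across replicates. By abundance, r was 0.08 for the 210 miRNAs of 10 to 100 RPM, 0.42 for the 177 of 100 to 1000 RPM, and 0.10 for the 103 of 1000 RPM or more. The median ratio over all 490 was 0.07 at day 1 and -0.07 at day 2.

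A test over both days called none. The limma fit on log2(RPM + 1) with day as a block called 0 of 738 tested miRNAs (0%) at an adjusted p under 0.05. The lowest adjusted p was 0.649, and 44 miRNAs had an unadjusted p under 0.05. The fit had 1 residual degree of freedom, and a count of 0 in such a fit does not show that Dox had no effect. The limma adjusted p was 0.649 for every one of the 24 miRNAs named next, and the direction of each is stated as a property of these 4 libraries.

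Agreement between the days was therefore described in 2 further ways. By fold, 23 miRNAs (4.69%) were at least 1.5-fold higher with Dox on both days and 23 (4.69%) were at least 1.5-fold lower on both. Copies with equal values were each counted. These were the 3p arms of miR-465a, miR-465b and miR-465c among the lower, and miR-669a-3p and miR-669o-3p, equal in ratio, among the higher. By counting, 35 (7.14%) had a 95% interval of the ratio of reads above 1 on both days, and 35 (7.14%) below 1 on both, while 36 had intervals on opposite sides of 1 on the 2 days. These intervals cover counting error only, not the spread between cultures. The 2 descriptions differed in the abundance of what they chose: of the 46 by fold, 34 had a mean under 100 RPM, and of the 70 by counting only 4 did. At the border of 1.5-fold, miR-1949, miR-1929-5p and miR-671-3p lay just inside, each at 0.585 on the day of the smaller ratio, and miR-30c-2-3p (0.577), miR-467e-5p (0.572) and miR-10a-5p (0.566) lay just outside, lower with Dox.

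**Figure D1:**
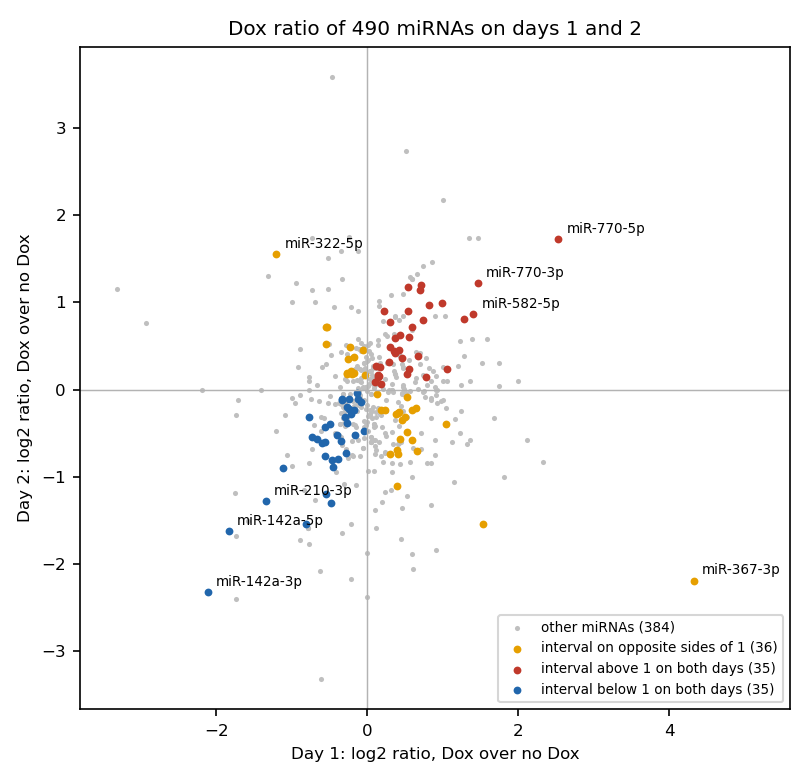
Each point is 1 of the 490 miRNAs averaging 10 RPM or more, with its log2 Dox ratio at day 1 on the horizontal axis and at day 2 on the vertical axis. Red (35) and blue (35) mark counting intervals above and below 1 on both days, orange (36) intervals on opposite sides, and grey all others; the cloud is nearly round, with a Pearson r of 0.13.

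Among the 35 miRNAs higher by counting on both days, the arms of miR-770 had the largest ratios on the day of the smaller ratio, the measure used to order them. Its hairpin lies at chr12:109563692-109563785 (+, GRCm38.p6) in an exon of Meg3, a maternally expressed noncoding RNA of the imprinted Dlk1-Dio3 region. miR-770-5p stood at 11 RPM without and 68 with Dox at day 1, then 9 and 32. miR-770-3p stood at 47 and 131, then 97 and 228. On each day both arms were higher in the Dox library, with log2 ratios of 2.52 and 1.72 for the 5p arm and 1.46 and 1.22 for the 3p arm. The 5p arm rested on 5 and 35 reads at day 1 and 4 and 15 reads at day 2, and its ratio of 3.56 at day 2 had an interval from 1.07 to 13.9.

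The arms of miR-582 were also both higher. The hairpin lies at chr13:109324744-109324824 (+), within an intron of Pde4d, which encodes a cyclic AMP phosphodiesterase. miR-582-3p measured 225 RPM without and 545 with Dox at day 1, and 294 and 517 at day 2. miR-582-5p measured 27 and 73, then 43 and 79. The log2 ratios were 1.27 and 0.81 for the 3p arm, and 1.40 and 0.86 for the 5p arm, larger at day 1 for each.

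The miR-196 group lies between Hox genes, which pattern the body axis and are targets of miR-196. miR-196a-5p had 665 RPM without and 1006 with Dox at day 1, and 626 and 1032 at day 2. miR-196b-5p had 627 and 921, then 643 and 978. The minor arm miR-196a-1-3p, specific to the hairpin at chr11:96265164-96265265 (+), had 120 and 239, then 112 and 223, a log2 ratio of 0.99 on each day. The 2 main arms share 21 of 22 bases (A12C, positions from the 5′ end of miR-196a-5p), and their values were nearly equal in all 4 libraries, so reads may be shared between them. miR-196b lies at chr6:52230081-52230165 (-) in an exon of Hoxa9 transcripts.

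Most of the remaining higher miRNAs belonged to no common group. miR-22-3p, an abundant miRNA often high in differentiated cells, had 2583 RPM without and 4316 with Dox at day 1, and 1900 and 3312 at day 2. Its log2 ratio averaged 0.77 with an SE of 0.10, the smallest SE of the 24, and both Dox libraries were above both no Dox libraries. Its hairpin lies at chr11:75463716-75463810 (+), in an exon of the noncoding host gene Mir22hg. miR-192-5p, a miRNA of gut and liver, had 380 and 620 RPM at day 1, and 176 and 406 at day 2, so the levels of both treatments were lower at day 2 while the ratio was larger.

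miR-1968-5p, from an intron of Grtp1 at chr8:13189031-13189098 (-), measured 198 and 348 RPM at day 1 and 119 and 234 at day 2. miR-1191a, at chr7:27205536-27205655 (+), measured 96 and 156, then 69 and 153. miR-299a-5p, a member of the large maternal cluster of the Dlk1-Dio3 region at chr12:109710638-109710700 (+), measured 107 and 156, then 50 and 94. For each of these 3, the level without Dox was lower at day 2 than at day 1, and the Dox level of day 2 lay above the no Dox level of its own day. The groups of libraries overlapped for miR-299a-5p, whose Dox level at day 2 was below the no Dox level at day 1.

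Outside the 12 with the largest ratios, the other 23 miRNAs with intervals above 1 on both days were mostly abundant and moved less. miR-674-3p had 494 and 715 RPM at day 1, and 275 and 621 at day 2. miR-191-5p, a miRNA found in many tissues, had 5211 and 6742, then 3260 and 4903. miR-378a-3p, from an intron of the metabolic coactivator gene Ppargc1b, had 5396 and 6885, then 5309 and 7206, and the near copy miR-378c followed it with 4802 and 6194, then 4856 and 6494. miR-26a-5p had 5438 and 6331, then 3767 and 7017, a log2 ratio of 0.22 at day 1 and 0.90 at day 2. The most abundant of the 35, miR-182-5p, was higher by log2 ratios of 0.13 and 0.14 only.

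**Figure D2:**
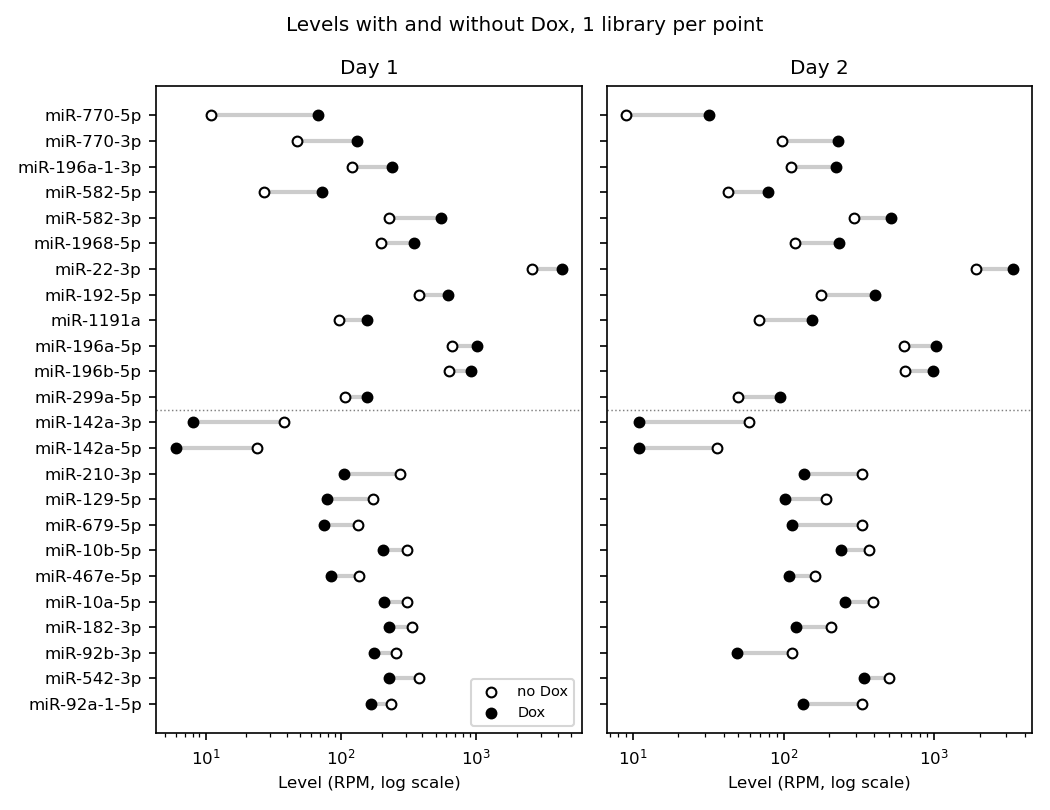
Levels in RPM on a log scale for the 12 miRNAs higher (above the dotted line) and the 12 lower (below it) with the largest ratios among those chosen by counting, open circles for no Dox and filled circles for Dox, 1 library per circle. The filled circle lies to the right in the upper 12 and to the left in the lower 12 on each day, which is how they were chosen, and levels span from 6 to 4316 RPM.

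Among the 35 miRNAs lower by counting on both days, the arms of miR-142a had the largest ratios on that measure. miR-142 is a miRNA of blood cells, and its hairpin lies at chr11:87756864-87756927 (+) within its host gene Mir142hg. miR-142a-3p had 38 RPM without and 8 with Dox at day 1, and 59 and 11 at day 2. miR-142a-5p had 24 and 6, then 36 and 11. The log2 ratios were -2.12 and -2.32 for the 3p arm and -1.84 and -1.62 for the 5p arm, and the Dox values were near the level of 3 reads. Of the 10 blood and endothelial miRNAs listed, 5 averaged 10 RPM or more. The 2 miR-142a arms were the only ones of these lower on both days (40.0%, beside 26.5% of all). The list summed to 0.171% of reads without and 0.135% with Dox at day 1, and 0.148% and 0.121% at day 2. miR-451a of red cells was at 0 in all 4 libraries, and miR-150-5p of lymphocytes measured 794 and 500 RPM at day 1 and 211 and 219 at day 2. The part of blood-like cells in these values was not tested, and in bulk RNA fewer cells of a type and less RNA per cell cannot be told apart.

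miR-210-3p, which is induced by hypoxia, came next among these 35. miR-326-3p and miR-877-3p had larger ratios on both days (-1.74 and -1.68, and -1.58 and -1.51) but values between 2 and 76 RPM, and were not among the 35. It measured 271 RPM without and 106 with Dox at day 1, and 332 and 136 at day 2, so both Dox libraries lay below both no Dox libraries. The log2 ratios were -1.35 and -1.28, averaging -1.31 with an SE of 0.17. The hairpin lies at chr7:141221384-141221493 (-). Its 5p arm was near or at 0 in all 4 libraries, with 9 RPM in the no Dox library of day 2 and 0 in the other 3.

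miR-10a and miR-10b, like miR-196, lie in Hox clusters, yet were lower with Dox. miR-10a-5p, at chr11:96317165-96317274 (+), measured 307 RPM without and 207 with Dox at day 1, and 389 and 255 at day 2. miR-10b-5p, at chr2:74726070-74726137 (+) within Hoxd3 and Hoxd4 transcripts, measured 309 and 203, then 370 and 242. They share 22 of 23 bases (U12A), and their values were nearly equal, so the 2 may not be separate measurements. The 5 Hox cluster miRNAs split into 3 higher (60%, beside 28.2% of all) and 2 lower on both days (40%, beside 26.5%). All 5 passed the counting description, beside 7.14% of all in each direction. Near copies were each counted, in the miR-196 group as in the miR-10 group. The 5 may therefore not be separate measurements.

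Other lower miRNAs came from several loci. miR-129-5p, a brain miRNA with hairpins on chromosomes 2 and 6, measured 173 RPM without and 79 with Dox at day 1, and 192 and 102 at day 2. miR-679-5p, from the same maternal cluster as miR-299a at chr12:109715577-109715650 (+), measured 133 and 75, then 332 and 113. It was therefore a member of the Dlk1-Dio3 region on the lower side, as was miR-434-5p with 1807 and 1487, then 5134 and 3105. miR-542-3p, at chrX:53049403-53049487 (-) in the miR-322 cluster, measured 376 and 226, then 501 and 342. miR-467e-5p, of the cluster within Sfmbt2, measured 136 and 85, then 161 and 108. Both Dox levels lay below both no Dox levels for these miRNAs, except miR-434-5p, whose Dox level at day 2 was above its no Dox level at day 1.

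The remaining 3 of the 12 included 2 minor arms. miR-92b-3p, at chr3:89227116-89227198 (-), measured 256 and 174 RPM at day 1, and 114 and 49 at day 2. miR-92a-1-5p, the minor arm of a hairpin in the miR-17 cluster at chr14:115044427-115044506 (+), measured 233 and 166, then 332 and 134. miR-182-3p, the minor arm of a sensory-organ miRNA at chr6:30165918-30165992 (-), measured 336 and 228, then 206 and 121. For miR-92b-3p and miR-182-3p the Dox level of day 1 was above the no Dox level of day 2. The partner arm miR-182-5p was higher with Dox on both days (41143 and 45170 RPM, then 30437 and 33522).

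Agreement between the 2 arms of a hairpin was described over all hairpins measured in both arms. No value for pairs of unrelated miRNAs was worked out to set beside it. Of 143 hairpins with 10 RPM or more in both arms, the mean ratio had the same direction in both arms for 94 (65.7%). Both arms were higher on both days for 19 of the 143 hairpins and lower for 16, beside 28.2% and 26.5% of single miRNAs. Copies with equal ratios in an arm, such as miR-466b, miR-466c and miR-466e, were counted as separate hairpins. These counts therefore do not all rest on separate measurements. With counting intervals in both arms, 2 hairpins were higher (miR-770 and miR-582), 2 were lower (miR-142a and miR-106b) and 1, miR-182, had arms in opposite directions. A further 31 hairpins passed in 1 arm only, and 7.14% of single miRNAs passed in each direction. The arms of these hairpins that passed are by definition among the miRNAs chosen by counting.

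The miR-17 family clusters, which promote proliferation and hold several seeds, had 14 of 25 members lower on both days (56.0%, beside 26.5% of all) and 5 higher (20.0%, beside 28.2%). By counting intervals 7 were lower (28.0%) and 3 higher (12%), beside 7.14% of all in each direction. Their median was -0.02 at day 1 and -0.24 at day 2. miR-20a-5p measured 10821 RPM without and 8197 with Dox at day 1, and 14917 and 10408 at day 2, log2 ratios of -0.40 and -0.52. miR-106b-5p measured 531 and 404, then 1200 and 691. miR-17-5p measured 7517 and 6918, then 11598 and 10727, ratios of -0.12 and -0.11 that counting resolved because of the depth.

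The miR-106b cluster, within the replication gene Mcm7, held opposite directions. miR-106b-5p and miR-93-5p were lower, the latter with 7543 and 6342 RPM at day 1 and 7620 and 6519 at day 2. miR-25-3p from the same host transcript was higher, with 12761 and 15688 RPM at day 1 and 9307 and 13051 at day 2. Its hairpin, at chr5:138165321-138165404 (-), and that of miR-106b, at chr5:138165737-138165818 (-), belong to a chain of 3 hairpins.

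The seed AUUGCAC of miR-25 was split in the same way. Of its 6 members with a matched sequence, miR-25-3p and miR-363-3p were higher on both days by counting intervals. miR-92a-3p, miR-92b-3p and miR-32-5p were lower by the same description. miR-363-3p measured 2972 and 3283 RPM at day 1 and 6448 and 7238 at day 2. miR-92a-3p measured 22653 and 18842, then 20160 and 15398. miR-32-5p measured 1661 and 1466, then 2130 and 1816. The sixth, miR-367-3p of the miR-302 cluster, was on opposite sides on the 2 days, with 0 and 19 RPM at day 1 and 31 and 6 at day 2.

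The miR-290 cluster, the main miRNAs of naive stem cells, showed small ratios. Of its 14 members, 4 were lower on both days (28.6%, near the 26.5% of all) and 1 was higher (7.14%, beside 28.2%). The median ratios were -0.10 at day 1 and 0.03 at day 2. Its leading member by level, miR-293-3p, measured 106500 RPM without and 107760 with Dox at day 1, then 105909 and 110999. The 2 members past the counting description (14.3%, beside 7.14% of all), miR-291a-3p and miR-295-3p, had ratios between -0.14 and -0.05. The miR-302 cluster, whose miR-302d-3p shares their seed, had 3 of 6 lower on both days (50%, beside 26.5% of all) and none higher (beside 28.2%). Its medians were -0.07 at day 1 and -0.82 at day 2. miR-302d-3p measured 400 RPM without and 292 with Dox at day 1, and 1025 and 553 at day 2. The 10 let-7 miRNAs, which oppose the stem cell state, had 3 lower on both days (30.0%, near the 26.5% of all) and 0 higher (beside 28.2%). They had 0 by counting interval (beside 7.14% of all in each direction) and a median of -0.01 over both days.

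The miR-200 family, which maintains epithelial character, had 5 of 7 members lower on both days (71.4%, beside 26.5% of all) and none higher (beside 28.2%). Their medians were -0.25 at day 1 and -0.29 at day 2, beside 0.07 and -0.07 for all miRNAs. miR-429-3p measured 1961 RPM without and 1333 with Dox at day 1, and 2197 and 1634 at day 2. miR-200b-3p measured 5298 and 4554, then 3881 and 3182, miR-200c-3p 1587 and 1315, then 1385 and 1208, and miR-200a-3p 3608 and 3038, then 3383 and 3129. All 4 were lower on both days by counting (57.1% of the 7, beside 7.14% of all). In contrast, miR-141-3p was lower at day 1 (760 and 637) and higher at day 2 (467 and 596).

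The miR-322 cluster on the X chromosome, expressed with mesoderm and muscle differentiation, had 7 of 8 members lower on both days (87.5%, beside 26.5% of all). Its medians were -0.85 at day 1 and -0.34 at day 2, and only miR-542-3p passed by counting (12.5%, beside 7.14% of all). The cluster held 0.0978% of reads without and 0.064% with Dox at day 1, and 0.107% and 0.0796% at day 2. miR-322-5p itself, with 82 and 35 RPM at day 1 and 14 and 43 at day 2, was the member on opposite sides.

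Of the neural list, 12 miRNAs were measured. On both days 5 were lower (41.7%, beside 26.5% of all) and 1 was higher (8.33%, beside 28.2%). By counting 4 were lower (33.3%) and 1 higher (8.33%), beside 7.14% of all in each direction. The near copies miR-7a-5p and miR-7b-5p were each counted among the 4. miR-9-5p measured 5018 RPM without and 3924 with Dox at day 1, and 7304 and 4835 at day 2, log2 ratios of -0.35 and -0.60. miR-7a-5p measured 17450 and 13882, then 14934 and 13892, and miR-7b-5p, which shares 22 of 24 bases with it, 16459 and 13060, then 14222 and 13066. Their values lay close together, so they may not be separate measurements. The remaining member lower by counting, miR-184-3p, was the most abundant of the list, with 51077 and 49336, then 62431 and 45057. miR-128-3p was the higher member, with 536 and 659 RPM, then 380 and 649. Of the 14 feeder fibroblast miRNAs, 2 were higher (14.3%, beside 28.2% of all) and 6 lower (42.9%, beside 26.5%) on both days. miR-22-3p was among the higher and miR-143-3p (2723 and 1599, then 2410 and 1929) among the lower. That list held 2.69% of reads without and 2.67% with Dox at day 1, and 2.51% and 3.32% at day 2, and its part in the ratio of miR-22-3p was not tested. Of the 3 endoderm miRNAs measured, 2 were higher on both days (66.7%, beside 28.2% of all) and 1 was lower (33.3%, beside 26.5%). The lower member was at least 1.5-fold lower on each day. By counting 1 was higher (33.3%) and 0 lower, beside 7.14% of all in each direction. The list of 9 held 0.0619% and 0.0905% of reads at day 1, and 0.0282% and 0.0597% at day 2.

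miRNAs of the imprinted Dlk1-Dio3 region, an array on chromosome 12 expressed from the maternal allele, made up most of those higher with Dox at day 1 and lower at day 2. Of its 81 measured members, 27 were higher on both days (33.3%, near the 28.2% of all) and 9 lower (11.1%, beside 26.5%). By counting 8 were higher (9.88%, near the 7.14% of all) and 2 lower (2.47%). Their median ratio was 0.47 at day 1 and -0.23 at day 2. miR-127-3p measured 8524 RPM without and 11441 with Dox at day 1, and 16113 and 13451 at day 2. miR-410-3p measured 1136 and 1493, then 4194 and 2597, and miR-409-3p 776 and 1031, then 2811 and 1689. Of the 22 miRNAs whose intervals lay above 1 at day 1 and below 1 at day 2, 17 came from this region, 77.3% of the 22 and 21.0% of the 81, beside the region's 16.5% share of all 490. None of the 14 with the reverse pattern came from it. The whole region held 6.07% of reads without and 8.61% with Dox at day 1, and 13.4% and 12.1% at day 2. Its share was thus higher at day 2 than at day 1 under both treatments, by more without Dox. miR-381-3p was higher with Dox on both days (6587 and 11267 RPM, then 17164 and 18971).

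**Figure D3:**
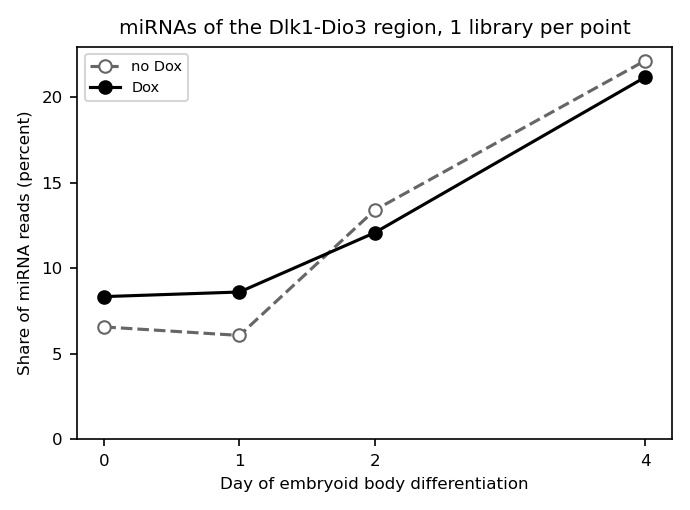
Share of all miRNA reads held by miRNAs of the Dlk1-Dio3 region (vertical axis, percent) by day of differentiation, dashed with open circles for no Dox and solid with filled circles for Dox, 1 library per point. The Dox line lies above the other at day 1 (8.61% against 6.07%) and below it at day 2 (12.1% against 13.4%).

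Of the 36 miRNAs with intervals on opposite sides of 1, the others lay outside the region: 5 of the 22 and all 14 that were lower at day 1 and higher at day 2. miR-467a-5p of the Sfmbt2 cluster measured 1107 RPM without and 759 with Dox at day 1, and 1158 and 1904 at day 2. miR-148a-3p measured 10956 and 9313, then 9136 and 12766. miR-21a-5p, common in fibroblasts and differentiated cells, measured 20472 and 19676, then 19709 and 27007. The 58 measured miRNAs of the Sfmbt2 cluster had 10 higher (17.2%, beside 28.2% of all) and 18 lower on both days (31.0%, near the 26.5% of all), with a median of -0.09 over both days.

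**Figure D4:**
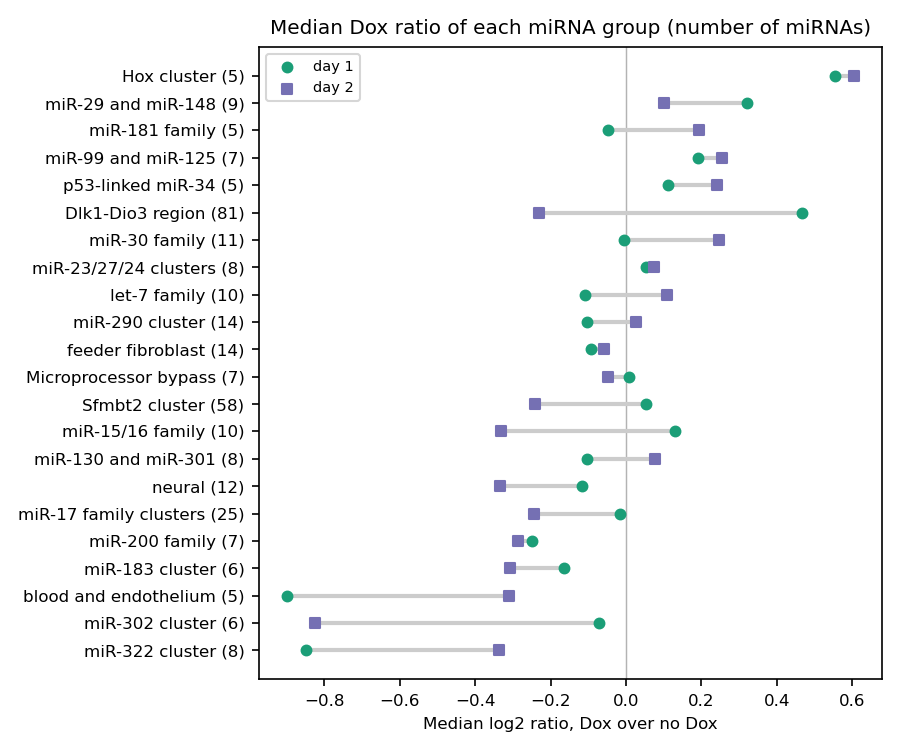
Median log2 Dox ratio (horizontal axis) of each miRNA group with at least 5 measured members, circles for day 1 and squares for day 2, with the number of members in parentheses. The 2 symbols lie on the same side of 0 for the miR-200 family (-0.25 and -0.29) and on opposite sides for the Dlk1-Dio3 region (0.47 and -0.23).

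miRNAs reported to bypass the Microprocessor gave a comparison within the libraries. The list includes mirtrons and capped hairpins, made without DGCR8 or mostly so, and is not limited to these. Of 7 measured, 1 was higher and 1 lower on both days (14.3% each, beside 28.2% and 26.5% of all). None passed by counting, beside 7.14% of all in each direction. The lower was the mirtron product miR-877-3p, with 20 RPM without and 6 with Dox at day 1 and 19 and 6 at day 2, log2 ratios of -1.58 and -1.51 that rested on 9, 3, 8 and 3 reads. miR-484 measured 365 RPM without and 367 with Dox at day 1, and 275 and 283 at day 2. miR-320-3p measured 549 and 562, then 441 and 374. The group's median over both days was -0.09, beside 0.005 for all miRNAs.

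miR-1306 lies within an exon of Dgcr8 itself, at chr16:18284239-18284317 (-), in a hairpin that the Microprocessor cuts from the Dgcr8 transcript. miR-1306-5p measured 13 RPM without and 25 with Dox at day 1, and 9 and 17 at day 2. miR-1306-3p measured 4 and 17, then 5 and 9. Both arms were higher with Dox on both days, with log2 ratios between 0.74 and 1.85, but values were within a few times the worth of 3 reads, and the counting intervals were not above 1 on both days for either arm.

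The ratios at days 0 and 4, from libraries not used in the choice, were compared with those of days 1 and 2. Of the 35 miRNAs higher on both days by counting, 24 (68.6%) had a ratio above 1 at day 0 and 24 at day 4, beside 52.0% and 47.6% of all 490. Of the 35 lower, 22 (62.9%) were below 1 at day 0 and 24 (68.6%) at day 4, beside 45.9% and 50.8%. Of the 23 higher by fold, 21 (91.3%) were above 1 at day 0 and 15 (65.2%) at day 4, whereas of the 23 lower by fold, 10 (43.5%) were below 1 at day 0 and 14 (60.9%) at day 4. Copies with equal values were each counted in these sets by fold.

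The miR-196 and miR-582 arms were higher with Dox on all 4 days. miR-196a-5p measured 487 RPM without and 948 with Dox at day 0, and 422 and 879 at day 4. miR-582-3p measured 177 and 336, then 149 and 567. miR-22-3p was level at day 0 (2148 and 2195) and higher at day 4 (1266 and 2147). miR-10a-5p and miR-10b-5p, lower on days 0, 1 and 2, were higher at day 4, where miR-10a-5p measured 201 and 689 RPM.

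In the test of days 1 and 2 against days 0 and 4, which was fitted to all 8 libraries, limma called 1 of 839 miRNAs (0.119%), and 35 had an unadjusted p under 0.05. The called miRNA was miR-210-3p, with a difference in log2 ratio of 2.32, an SE of 0.51 and a limma adjusted p of 0.00549. The fit had 2 residual degrees of freedom. For 817 of the 839 miRNAs the prior degrees of freedom were infinite, so their SE came from the trend over all miRNAs and not from their own spread. It was lower with Dox on every day, and by less at days 1 and 2. It measured 970 RPM without and 93 with Dox at day 0, and 988 and 65 at day 4, log2 ratios of -3.37 and -3.91. Without Dox its level was therefore lower at days 1 and 2 than at days 0 and 4, while the Dox libraries lay between 65 and 136 RPM. In fits that left out a day, with 1 residual degree of freedom, and in 2 other settings, the call was absent. It was lost without day 0, day 1, day 2 or day 4, with a prior variance not made robust (lowest limma adjusted p = 0.690) and without the mean-variance trend (lowest limma adjusted p = 1).

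**Figure D5:**
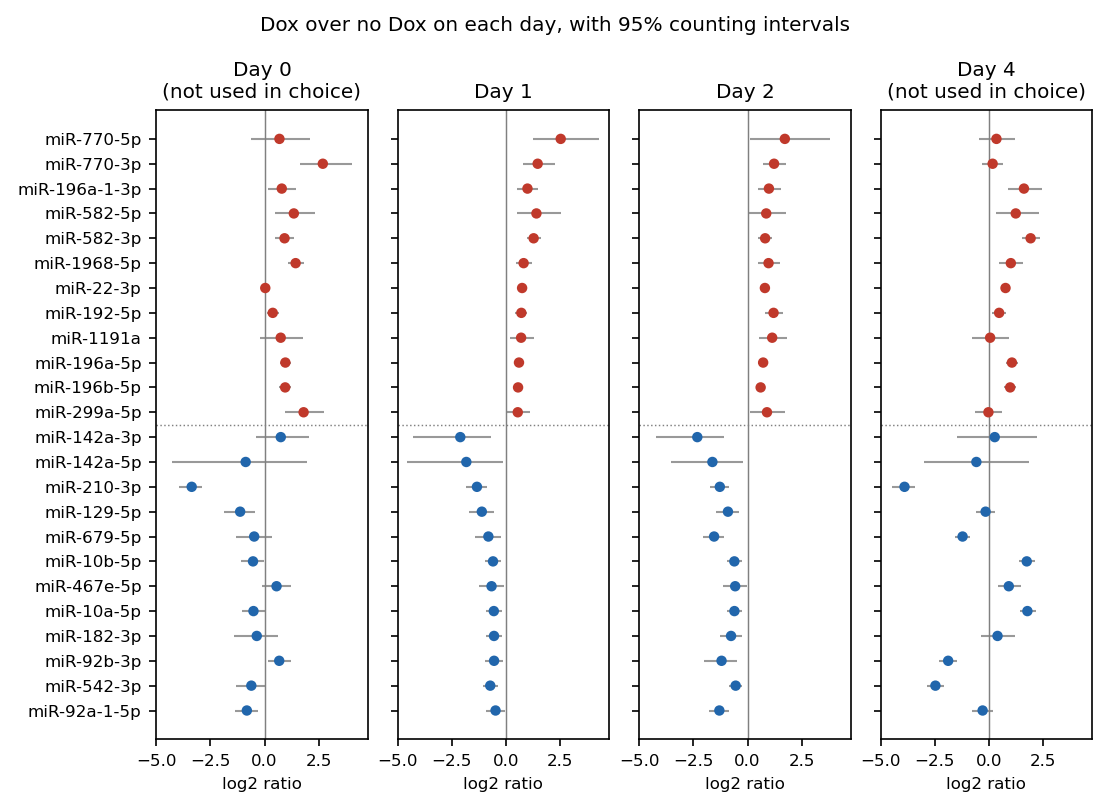
Log2 Dox ratio (horizontal axis) of the 12 higher (red) and 12 lower (blue) miRNAs on each of days 0, 1, 2 and 4, with 95% intervals of the ratio of reads for counting error; only days 1 and 2 were used to choose them. miR-210-3p lies far to the left at days 0 (-3.37) and 4 (-3.91), and miR-10a-5p moves from the left at day 2 (-0.61) to the right at day 4 (1.77).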

How the data were processed

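Small RNA libraries (total RNA by TRIzol, NEBNext kit, per the labels' protocols) were deposited as a table of 1099 mature miRNAs and 1 row naming none, which was left out. The deposited score values are whole numbers summing to between 999965 and 1000037 in the 4 libraries, taken here as RPM rounded by the authors. The submitters' processing notes name Bowtie and mm10, with no version; the sources used here do not give how reads matching several miRNAs were treated. The smallest read total fitting every value was used for reads; several totals fitted for 3 of the 4 libraries, and larger ones would narrow the intervals.

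miRNAs averaging 10 RPM or more were described; intervals are exact conditional binomial at 95%. The test was limma 3.58.1 (R 4.3.3) on log2(value + 1) with day as a block, trend and robust prior, Benjamini-Hochberg adjusted at 0.05, checked on simulated data; Python 3.11.15 did the rest. Named were the 12 higher and 12 lower with the largest smaller-of-2-days ratio among counting-interval miRNAs, the 10 most abundant, up to 4 per list, up to 10 by the test between days, and miR-1306; the rest given with values were chosen after those were seen. The members and lists were chosen with earlier results of these data known. RefSeq sequences matched 926 of 1099 miRNAs. p-values measure only the variation among these libraries, which may be technical. The residual in these fits is how the Dox ratio differs between days, not a spread between replicates.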

Additional observations from a re-analysis of the deposited data

Results flagged for a closer look

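For 3 of the named miRNAs the Dox effect of days 1 and 2 stood apart from that of days 0 and 4, 1 by the test of the difference and 2 by direction alone. For miR-210-3p the difference in log2 ratio, days 1 and 2 minus days 0 and 4, was 2.32, and the limma test of the difference passed (adjusted p = 0.00549). For miR-142a-3p the difference was -2.72: the Dox library was lower on days 1 and 2 and higher on days 0 and 4 (27 and 46 RPM, then 14 and 17), and the limma test of the difference did not pass (adjusted p = 0.582). For miR-467e-5p it was -1.35, with the same pattern of directions (87 and 128 RPM at day 0, 119 and 225 at day 4) and a limma adjusted p of 0.883. No group held more than 1 library, so samples could not be compared with others of their group.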

How the results depend on the processing

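The limma count of 0 for days 1 and 2 stayed 0 under all 13 alternatives, with a lowest adjusted p between 0.0869 (without day 2) and 1 (no replicate block, that is no day term). The unadjusted count ran from 15 to 66, and leaving out day 1 or day 2 gave 0 calls each. Those fits took their spread from days 0 and 4 and rest on 1 library per treatment, so their 0 says nothing of stability. For days 1 and 2 against days 0 and 4, limma called 1 under both pseudocounts, both filters and both scalings, 0 with a non-robust prior, 0 without the mean-variance trend and 5 with limma-voom on implied reads. Leaving out each day gave between 0 and 1 calls, and the 1 without day 2 was another miRNA. The count at least 1.5-fold higher became 5 at 2-fold, 11 at a mean of at least 50 RPM and 67 with no filter; the lower count became 7, 5 and 45. At 99% intervals the higher count became 23 and the lower 29; scaling left the counting sets between 31 and 36. Of 156 alternative values for 26 named miRNAs, 0 changed direction. The pseudocounts and the single-day values could not change it, because each of these miRNAs had the same direction on both days. Only the scalings could have, so the 0 says little of stability. The scalings changed the sign of no group's median, only that over all miRNAs (0.0049 to -0.0051). Both-day counts cannot be made with a day left out. With 1 library per group, values near 7 RPM are limited by depth.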

Other observations

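A run of X-linked miRNAs, chosen after their values were seen, was lower with Dox on both days. The chain of 19 hairpins around Mir465 lies at chrX:66776757-66839125 (GRCm38.p6). Of its 9 miRNAs averaging 10 RPM or more, the 3p arms of miR-465a, miR-465b and miR-465c had identical values (18 and 10 RPM, then 14 and 4) and were counted as 1, which leaves 7. Of these, 6 were lower on both days and 0 higher, beside 26.5% and 28.2% of all 490. The median log2 ratios were -0.84 at day 1 and -1.58 at day 2, and 0.17 and -0.28 at days 0 and 4. miR-881-3p measured 67 RPM without and 37 with Dox at day 1, and 81 and 36 at day 2. miR-470-5p measured 36 and 10, then 31 and 13. None of the 7 had counting intervals below 1 on both days, and the 7 summed to 243 and 119 RPM at day 1, and 258 and 94 at day 2.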
